A study of Mus musculus with 46 samples.

Results

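Clu, Iapp, U90926 and Aqp8 were followed through reprogramming of mouse fibroblasts. They are 4 of the 37108 genes in the gene-level table and were chosen by their level at day 5 (D5), which was far higher with a Nanog fusion than with unmodified Nanog, and by their low level in embryonic stem cells (mES). The D5 levels therefore describe the choice and were not tested, and neither were steps into or out of D5. No numeric threshold was used, so no gene lies just inside or just outside one. Each gene had 1 symbol in the gene table and 1 in the table of established iPSC lines, where transcripts were summed by symbol, and all 4 passed the filter on low values in the time course.

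The cells were mouse embryonic fibroblasts (MEF) from OG2 embryos, which carry an Oct4-GFP reporter. They received pMXs retroviruses for Oct4 together with Nanog (label Nanog+Oct4, here NanogWT) or for Oct4 together with Nanog fused to the N-terminal BRG1-interacting stretch of SS18 (label NanogN70+Oct4, here NanogBiD). SS18 belongs to the BAF complex, which remodels chromatin with BRG1 as its ATPase. Bulk RNA-seq was taken at D0 (the end of infection), in the first week on D1, D3, D5 and D7, and then on D8, D10 and D12, with 2 libraries per combination and day except 1 library for NanogBiD at D8, which makes 31 libraries in 16 groups. Both combinations share Oct4, the vector and the fibroblasts, and no library with an empty vector or with Oct4 alone was analysed here. Further libraries were 2 of untreated MEF, 1 of OG2 mES cells and 12 of iPSC, 6 for each combination. The iPSC of each combination are labelled iPSC1 or iPSC2, and the number after # in a label is called a clone here. Data columns of iPSC1 carry higher p numbers (read here as passage) than those of iPSC2. This label and passage therefore cannot be told apart. The labels do not say whether replicates came from separate infections, so p-values measure the spread between these libraries, which may be technical. By the methods the medium was changed from iCD3 to N2B27 + 2iL after 7 days or at a designed time, so the steps after D7 hold a change of medium as well as of time, and the 2 cannot be told apart. Delivered and endogenous transcripts cannot be told apart either. Pou5f1 (Oct4) averaged 5402 FPKM with NanogBiD and 5254 with NanogWT at D5, 2243 and 5435 at D7, and 1001 and 3613 at D8. Nanog averaged 1173 and 1564 FPKM at D5, 718 and 1372 at D7, and 327 and 468 at D8. FPKM (fragments per kilobase of transcript, scaled to the mapped total) is a level per length, so levels of different genes can be set side by side. Summed FPKM differed between libraries, so comparison between libraries is approximate.

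Library depth, relative to the first D3 library with NanogBiD, was 0.814 to 1.11 over all NanogBiD libraries and 0.875 to 1.06 for NanogWT up to D7. It was 1.86 to 3.19 for NanogWT from D8 to D12, so depth and combination cannot be told apart on those days. Replicates correlated at Pearson r = 0.961 to 0.990 over 15 pairs. Summed levels of 13 fibroblast markers were 2425 to 2747 FPKM with NanogBiD and 5144 to 5337 with NanogWT at D7. Summed levels of 15 epithelial markers were 53.5 to 61.9 and 8.22 to 10.7 FPKM. The part of these shifts in the results below was not tested, and in bulk RNA fewer cells of a type and less RNA per cell cannot be told apart.

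The 4 genes belong to no common family. Clu encodes clusterin (apolipoprotein J), a secreted chaperone that binds misfolded proteins outside cells and is taken up by cells through surface receptors. Iapp encodes amylin, a peptide hormone that pancreatic beta cells release with insulin and that acts through the calcitonin receptor (Calcr) paired with a Ramp protein. Aqp8 encodes a water channel of the colon, pancreas and liver. U90926 is a mouse transcript that RefSeq lists as a long non-coding RNA and GENCODE as protein-coding, and it has been studied in fat cell precursors and in activated macrophages.

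In mm10 (GRCm38), the RefSeq annotation places Clu at chr14:65968483-65981548 on the plus strand and Iapp at chr6:142298425-142303820 on the plus strand. U90926 lies at chr5:92209895-92215408 on the minus strand and Aqp8 at chr7:123462294-123468003 on the plus strand. Clu and Aqp8 overlap no other annotated gene. Iapp lies inside the span of Slco1a5, a transporter gene on the minus strand, and U90926 overlaps the predicted gene Gm42113. No setting for strand was stated, so reads in these overlaps cannot be assigned with certainty.

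The stretches just before the start of 3 of the genes are shown as the reference letters before genes called at D3, D7 and D8. The sequences are RefSeq promoters of GRCm38.p6, 250 bases before the start, read 5′ to 3′ on the strand of the gene. Capitals mark the letters ACAAAG (core of Sox and Tcf motifs) and GGAATG (the reverse complement of the Tead core CATTCC). Clu was not among the promoter sequences used here.

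Iapp, chr6:142298175-142298424, plus strand: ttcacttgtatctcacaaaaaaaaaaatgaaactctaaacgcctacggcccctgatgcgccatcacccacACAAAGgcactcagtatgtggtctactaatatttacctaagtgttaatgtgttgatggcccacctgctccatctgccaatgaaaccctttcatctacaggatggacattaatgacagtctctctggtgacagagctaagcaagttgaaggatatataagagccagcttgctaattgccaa

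U90926, chr5:92215409-92215658, minus strand: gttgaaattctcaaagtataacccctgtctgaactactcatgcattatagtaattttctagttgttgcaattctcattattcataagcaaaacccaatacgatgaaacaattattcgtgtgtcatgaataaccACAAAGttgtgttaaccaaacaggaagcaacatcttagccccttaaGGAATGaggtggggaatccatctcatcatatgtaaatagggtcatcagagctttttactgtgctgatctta

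Aqp8, chr7:123462044-123462293, plus strand: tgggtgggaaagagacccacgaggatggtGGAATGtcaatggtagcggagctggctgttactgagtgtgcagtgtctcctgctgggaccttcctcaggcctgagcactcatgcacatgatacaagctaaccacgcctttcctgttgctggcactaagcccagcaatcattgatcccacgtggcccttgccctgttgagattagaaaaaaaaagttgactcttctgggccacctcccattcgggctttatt

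Over the 300 bases from 250 before to 50 after the start, 9 letter patterns were searched on both strands in 27025 promoters. ACAAAG was held by Iapp, at position -180 from the start, by U90926 at -117, and by 18.7% of all promoters. CATTCC was held on the opposite strand by U90926 at -71 and Aqp8 at -221, and by 14.6% of all promoters. A heat shock core with a pair of free letters, TTCNNGAA, was held by Iapp at 27 bases after its start, outside the printed stretch, and by 8.40% of promoters. Iapp, U90926 and Aqp8 held none of TATAAA (14.2% of promoters), GGGCGG (35.9%), TGANTCA (7.93%), ATGCAAA (4.59%), TAATGG (7.74%) or TTCNNNGAA (8.47%). None of these matches overlapped another. GC content was 35.7% for U90926, 44.3% for Iapp and 52.0% for Aqp8, against quartiles of 45.7% and 61.7% over all promoters. A match describes these letters and is not a binding site. Variant forms of a motif were not searched, such as the letters tatataag near the end of the printed Iapp stretch.

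By mean level Clu was the most abundant of the 4 on every day but D1 with either combination. With NanogBiD its level was 6.36 and 5.49 FPKM on D0, 6.49 and 8.16 on D1, 149 and 104 on D3, 818 and 796 on D5, 751 and 780 on D7, 566 on D8, 73.5 and 74.7 on D10, and 32.2 and 43.4 on D12. With NanogWT it was 8.00 and 5.18 FPKM on D0, 5.32 and 6.61 on D1, 19.3 and 18.5 on D3, 33.2 and 47.0 on D5, 47.5 and 52.9 on D7, 93.3 and 68.0 on D8, 109.9 and 78.1 on D10, and 85.9 and 58.9 on D12. The combinations overlapped at D0 and D1, stood apart with NanogBiD higher from D3 to D8, and stood apart the other way, with NanogWT higher, at D10 and D12. For all 4 genes, overlap describes the values of these few libraries and is no test. The share of all genes that stand apart in this way was not counted. At D10 Clu did not pass the test given below (limma adjusted p = 0.274). Untreated MEF held 7.50 and 1.52 FPKM and mES cells 5.44. By mean level Clu ranked 44 among all 37108 genes with NanogBiD at D5, 40 at D7, and 1209 with NanogWT at D7. The 3 highest groups in order were NanogBiD at D5, D7 and D8, and none of these overlapped the next. Below them, NanogBiD at D3 and NanogWT at D10, NanogWT at D8 and NanogBiD at D10 each overlapped the next in order, and NanogWT at D12 did not.

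Iapp went from no reads to over 100 FPKM and back with NanogBiD. With NanogBiD it was listed at 0 in both D0 libraries, then stood at 2.81 and 1.90 FPKM on D1, 100.4 and 105 on D3, 131 and 129 on D5, 76.1 and 128 on D7, 8.61 on D8, 0.678 and 0.195 on D10, and 0.219 and 0 on D12. With NanogWT it was 0 and 0.182 FPKM on D0, 0.387 and 0.562 on D1, 6.48 and 2.81 on D3, 6.88 and 9.36 on D5, 7.98 and 13.8 on D7, 1.42 and 0.393 on D8, 0.144 and 0.230 on D10, and 0.112 and 0.390 on D12. The combinations did not overlap from D1 to D8 and overlapped at D0, D10 and D12. Both MEF libraries and the mES library were listed at 0. The low values step by whole reads for Iapp, U90926 and Aqp8, and the D10 and D12 values of Iapp with NanogBiD correspond to 7, 2, 2 and 0 reads. The D3 and D7 groups with NanogBiD overlapped each other, and the 2 D7 libraries differed more than those of any other day with NanogBiD, at 102 ± 36.5 FPKM (SD, n = 2).

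U90926 was the earliest of the 4. With NanogBiD it stood at 2.59 and 1.88 FPKM on D0, 59.8 and 77.0 on D1, 95.4 and 70.6 on D3, 62.6 and 48.1 on D5, 37.4 and 34.1 on D7, 5.45 on D8, 0.516 and 0.259 on D10, and 0.292 and 0 on D12. With NanogWT it was 1.94 and 2.42 FPKM on D0, 19.6 and 15.99 on D1, 2.80 and 4.49 on D3, 0.453 and 1.49 on D5, 0.484 and 0.112 on D7, 0 in both libraries on D8, 0.128 and 0.154 on D10, and 0 in both on D12. The combinations overlapped at D0 alone among the days up to D10, and both rose at D1. With NanogWT the high value lasted 1 time point, and with NanogBiD the D1, D3 and D5 groups overlapped in order of level while D7 and D8 lay below them. MEF held 0 and 0.245 FPKM and mES cells 0.

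With NanogBiD Aqp8 was the lowest of the 4 at D5 and D7 on the scale per length, while with NanogWT U90926 was lower on both days. With NanogBiD it was 0 and 0.0825 FPKM on D0, 0.0798 and 0 on D1, 7.54 and 5.18 on D3, 37.7 and 32.0 on D5, 21.2 and 28.2 on D7, 12.1 on D8, 0.952 and 1.003 on D10, and 1.08 and 1.39 on D12. With NanogWT it was 0 in all 4 libraries of D0 and D1, 0.625 and 0.657 FPKM on D3, 1.27 and 1.81 on D5, 2.34 and 3.82 on D7, 4.94 and 2.57 on D8, 1.19 and 1.98 on D10, and 1.07 and 1.198 on D12. The combinations did not overlap from D3 to D10, with NanogBiD higher to D8 and NanogWT higher at D10, where Aqp8 did not pass the test given below (limma adjusted p = 0.179). MEF were listed at 0 and mES cells at 0.185 FPKM.

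**Figure D1:**
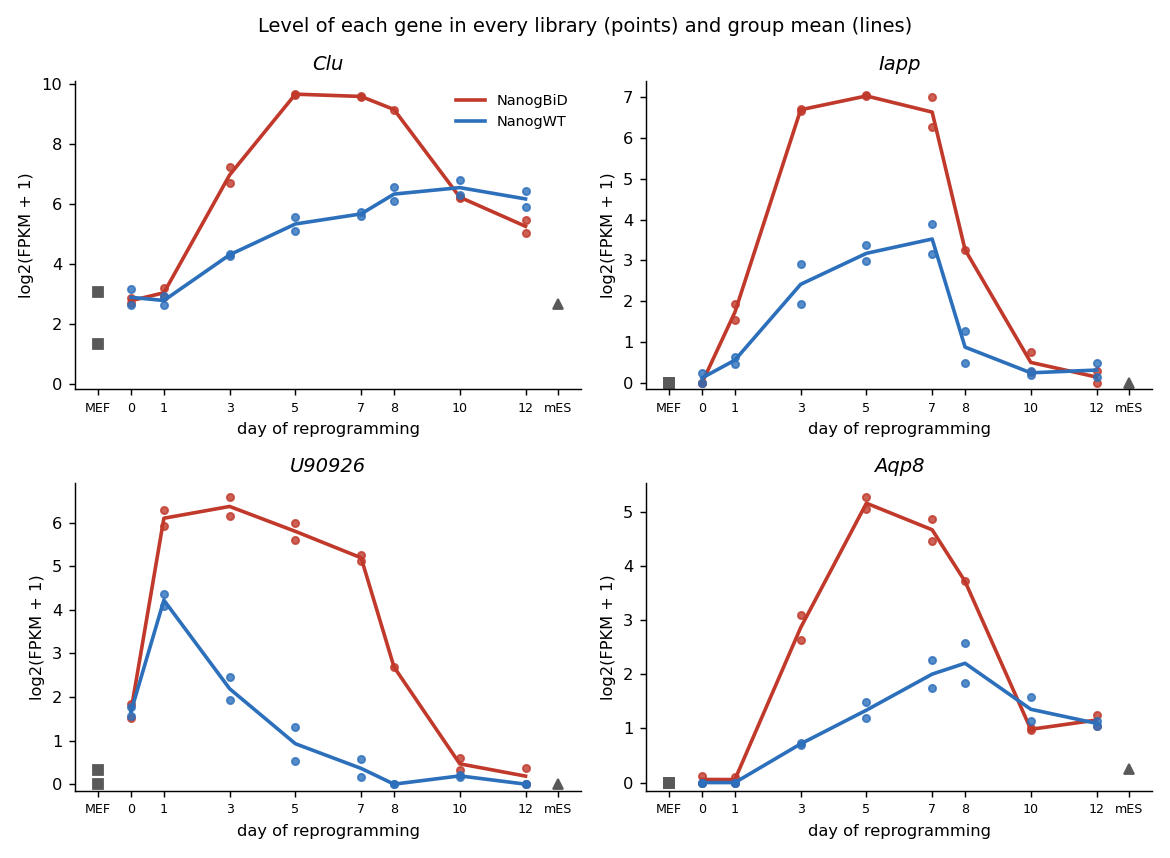
Level of each gene in every library, as log2(FPKM + 1), by day of reprogramming, with untreated MEF at the left and mES cells at the right; points are libraries and lines join group means of NanogBiD and NanogWT. Clu with NanogBiD stands at 751 to 818 FPKM at D5 and D7 against 33.2 to 52.9 with NanogWT, and U90926 alone is already high at D1.

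Which combination gave the higher level on each day was tested with limma on log2(FPKM + 1) over 16842 genes, and calls needed both a Benjamini-Hochberg adjusted p below 0.05 and a difference of at least 1 on that scale. At D0 none of the 4 was called, where 0.76% of all genes were, and their differences (NanogBiD minus NanogWT) lay between -0.12 for Iapp and 0.06 for Aqp8. At D1, 2 of the 4 were called higher with NanogBiD, against 0.368% of all genes. U90926 stood 1.88 higher (SE 0.25, adjusted p = 0.000155), a ratio of mean FPKM of 3.84. It was not called with a pseudocount of 0.1 (adjusted p = 0.0627). Iapp stood 1.17 higher (SE 0.32, adjusted p = 0.0477), and this call was lost when any 1 of the 4 D1 libraries was left out (adjusted p = 0.0903 to 0.393). Clu (0.26) and Aqp8 (0.06) were not called at D1.

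From D3 to D8 all 4 were higher with NanogBiD, while the share of all genes called higher grew from 1.25% at D3 to 5.79% at D7 and 13% at D8. At D3 the difference was 4.28 for Iapp (SE 0.32, adjusted p = 3.58e-08), 4.19 for U90926 (SE 0.25, adjusted p = 4.96e-09), 2.66 for Clu (SE 0.24, adjusted p = 4.32e-07) and 2.15 for Aqp8 (SE 0.23, adjusted p = 3.1e-06). In mean FPKM these were 22.1-fold for Iapp, 22.8-fold for U90926, 6.69-fold for Clu and 9.92-fold for Aqp8. Iapp and U90926 thus had larger differences at D3 than Clu and Aqp8. At D5, the day of the choice, the differences were 4.32 for Clu, 3.86 for Iapp, 4.88 for U90926 and 3.82 for Aqp8, with 3.2% of all genes called higher. The ratios of mean FPKM at D5 were 20.1, 16.01, 56.9 and 22.6 in the same order.

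At D7, in libraries that the choice did not use, U90926 stood 4.84 higher (SE 0.25, adjusted p = 6.6e-11), Clu 3.91 (SE 0.24, adjusted p = 6.56e-10), Iapp 3.11 (SE 0.32, adjusted p = 5.17e-07) and Aqp8 2.67 (SE 0.23, adjusted p = 5.08e-08). Clu averaged 766 ± 20.7 FPKM with NanogBiD and 50.2 ± 3.81 with NanogWT (SD, n = 2 each), a ratio of 15.3. Iapp averaged 10.9 ± 4.10 FPKM with NanogWT, a ratio of 9.36. Aqp8 averaged 24.7 ± 4.96 and 3.08 ± 1.05 FPKM, a ratio of 8.02. The ratio for U90926 was 119.9, and it rests on 4 and 1 reads in the NanogWT libraries. At D8, with 1 NanogBiD library taken to vary like the other groups, the differences were 2.81 for Clu (adjusted p = 6.5e-07), 2.39 for Iapp (adjusted p = 7.5e-05), 2.69 for U90926 (adjusted p = 1.46e-06) and 1.51 for Aqp8 (adjusted p = 0.000256). By value, each difference was smaller at D8 than at D7.

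By D10 no member was called, while 27.8% of all genes were called in either direction. Clu stood at -0.32 (adjusted p = 0.274) and Aqp8 at -0.37 (adjusted p = 0.179), that is, with NanogWT higher. Iapp at 0.26 (adjusted p = 0.525) and U90926 at 0.28 (adjusted p = 0.361) rested on 7 reads or fewer per NanogBiD library. At D12 again none was called, against 23.4% of all genes in either direction. Clu was lower with NanogBiD by an amount that passed the p but not the fold limit, at -0.91 (SE 0.24, adjusted p = 0.00358), with a ratio of 1.92 in favour of NanogWT. It passed both without the second NanogBiD library, at -1.12 (adjusted p = 0.00411), or the second NanogWT library, at -1.18 (adjusted p = 0.00234).

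**Figure D2:**
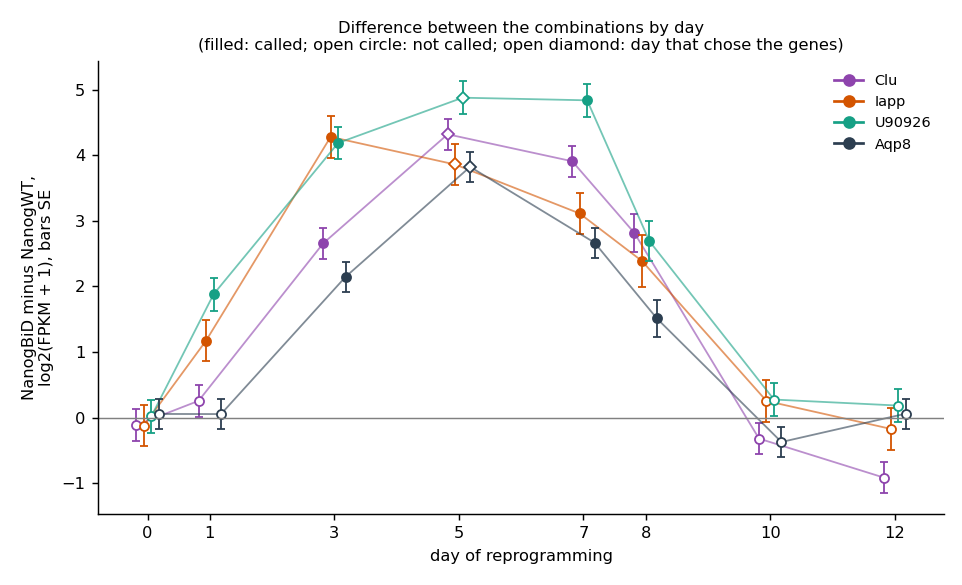
NanogBiD minus NanogWT on the log2(FPKM + 1) scale by day for each gene, with bars giving the standard error; filled points were called, open circles were not, and open diamonds mark D5, which chose the genes. The differences peak between 3.82 and 4.88 at D5 except for Iapp, which is highest at 4.28 on D3, and all lie between -0.37 and 0.28 at D10.

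How each combination moved from D0 was compared next. U90926 rose from D0 to D1 with both, by 4.42 on the log2 scale with NanogBiD (adjusted p = 4.44e-10, 5.06% of all genes called higher) and by 2.56 with NanogWT (adjusted p = 3.12e-07, 4.61% called higher). The rise was larger with NanogBiD by 1.86 (SE 0.35, adjusted p = 0.0221, 0.0772% of genes called higher). That difference of steps was not called with a pseudocount of 0.1, with levels rescaled to a common total, in a fit of these groups alone (adjusted p = 0.248) or without the D8, D10 and D12 libraries (adjusted p = 0.092). It was also lost without any single D1 library of either combination, or without the second D0 library of either (adjusted p = 0.0501 to 0.129). Iapp rose by 1.73 with NanogBiD (adjusted p = 0.000475) and was not called with NanogWT, at 0.44 (adjusted p = 0.396), but the steps did not differ past the threshold, at 1.30 (SE 0.45, adjusted p = 0.325). Neither Clu nor Aqp8 was called at D1 with either combination.

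From D0 to D3 all 4 rose with NanogBiD, where 8.95% of all genes were called higher, by 6.69 for Iapp, 4.69 for U90926, 4.18 for Clu and 2.80 for Aqp8. With NanogWT, Clu rose by 1.41 (adjusted p = 0.000103) and Iapp by 2.30 (adjusted p = 1.08e-05), beside 9.55% of all genes. U90926, at 0.52 (adjusted p = 0.112), had returned to near its start in NanogWT, and Aqp8, at 0.71 (adjusted p = 0.0197), was under the fold limit. With a pseudocount of 0.1, which weighs low values more, Aqp8 was called with NanogWT too, at 2.89 (adjusted p = 4.67e-06). The steps differed between the combinations for all 4, by 2.77 for Clu, 4.40 for Iapp, 4.17 for U90926 and 2.09 for Aqp8 (adjusted p = 8.49e-05, 1.33e-05, 1.54e-06 and 0.00068), against 0.742% of all genes called higher. That share is 125 genes and was sensitive to the libraries, with 368 called higher without the second D0 library with NanogWT, 300 without the second D3 library with NanogBiD, and 20 in a fit of the compared groups alone.

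From D0 to D7 the 4 genes stood higher with NanogBiD by 6.79 for Clu, 6.64 for Iapp, 3.51 for U90926 and 4.61 for Aqp8, beside 12.7% of all genes. With NanogWT 3 of them also rose, beside 12% of all genes, by 2.78 for Clu, 3.41 for Iapp and 2.00 for Aqp8, so these 3 rose with unmodified Nanog too, to lower levels. U90926 instead fell with NanogWT, at -1.30 (adjusted p = 0.000275, 5.69% of genes called lower). The steps to D7 differed by 4.02 for Clu, 3.23 for Iapp, 4.82 for U90926 and 2.61 for Aqp8, all called beside 5.2% of all genes. Between D3 and D7, Clu rose by 2.61 and Aqp8 by 1.81 with NanogBiD (4.56% of genes called higher), Iapp was level at -0.06 (adjusted p = 0.945), and U90926 fell, at -1.18 (adjusted p = 0.00245, 1.25% called lower). That fall was under the fold limit without the first D3 library with NanogBiD, at -0.96, and was not called with a pseudocount of 0.1 (adjusted p = 0.149). With NanogWT over the same days Clu rose by 1.36 and Aqp8 by 1.29 (1.47% called higher), U90926 fell, at -1.83 (0.178% called lower), and Iapp, at 1.11 (adjusted p = 0.068), was not called. Among these, Aqp8 was not called without the second D7 library, at 1.02 (adjusted p = 0.0703), and Iapp was called without the first D3 library, at 1.60 (adjusted p = 0.0168). The 4 genes formed no single course before D7. As a share of its own mean at D5 with NanogBiD, U90926 already stood at 123.6% on D1 and Iapp at 78.9% on D3, when Aqp8 was at 18.2% and Clu at 15.7%.

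The loss after D7 also differed in time between the genes. As a share of its own NanogBiD mean at D5, Clu stood at 94.9% at D7, 70.1% at D8, 9.19% at D10 and 4.68% at D12. Aqp8 stood at 70.8%, 34.8%, 2.80% and 3.54% on the same days. U90926 stood at 64.5%, 9.85%, 0.701% and 0.264%. Iapp stood at 78.3% at D7, with libraries at 58.5% and 98.2%, then at 6.62%, 0.335% and 0.0842%. Iapp and U90926 had thus lost most of their level in the single D8 library, in which Clu kept most of its own.

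**Figure D3:**
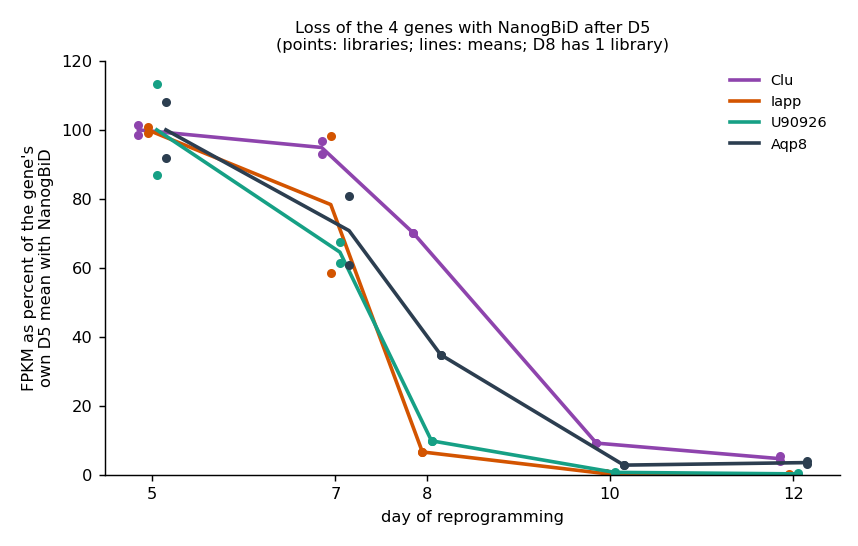
FPKM with NanogBiD as a percent of the gene's own D5 mean from D5 to D12, with points for libraries and lines for means. At D8, in 1 library, Clu stands at 70.1% and Aqp8 at 34.8% while U90926 is at 9.85% and Iapp at 6.62%.

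From D7 to D8 with NanogBiD, Iapp fell, at -3.37 (adjusted p = 4.79e-05), and so did U90926, at -2.51 (adjusted p = 6.15e-05), beside 2.15% of all genes called lower. Aqp8, at -0.95 (adjusted p = 0.0396), passed the p but not the fold limit, and Clu, at -0.44 (adjusted p = 0.381), passed neither. With NanogWT over the same day Iapp also fell, at -2.65 (adjusted p = 6.43e-06, 3.06% of genes called lower), while Clu stood at 0.66 (adjusted p = 0.0628), Aqp8 at 0.20 and U90926, already near 0, at -0.36. With a pseudocount of 0.1 that step of U90926 with NanogWT, from 4 and 1 reads to 0, was -1.81 and called (adjusted p = 0.0268). The steps differed between the combinations only for U90926, by -2.15 (SE 0.39, adjusted p = 0.0027, 2.58% of genes called lower). For Iapp the steps differed by -0.72 (SE 0.50, adjusted p = 0.438), so a larger fall of Iapp with NanogBiD over this day was not shown. Clu at -1.09 (adjusted p = 0.0931) and Aqp8 at -1.15 (adjusted p = 0.0632) were not called. With a pseudocount of 0.1 the difference for U90926, whose NanogWT libraries were near 0, was -0.87 and not called (adjusted p = 0.635). Clu was called after quantile normalization, at -1.48 (adjusted p = 0.0178), and Aqp8 without the second NanogWT library of D7, at -1.42 (adjusted p = 0.0493), or of D8, at -1.52 (adjusted p = 0.0191). The step of Aqp8 with NanogBiD was called without the first D7 library, at -1.15 (adjusted p = 0.0355). Which genes differ in this step thus depended on these settings.

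From D7 to D10 all 4 fell with NanogBiD, at -3.35 for Clu, -6.14 for Iapp, -4.73 for U90926 and -3.69 for Aqp8, beside 7.78% of all genes called lower. With NanogWT Iapp alone of the 4 was called, at -3.28 (adjusted p = 2.58e-07, 4.59% called lower), and Clu stood higher by 0.87 (adjusted p = 0.0109), under the fold limit, or by 1.12 (adjusted p = 0.0104) and called without the second D10 library. From D7 to D12 the steps with NanogBiD were -4.32 for Clu, -6.49 for Iapp, -5.01 for U90926 and -3.51 for Aqp8 (adjusted p = 6.85e-11, 1.98e-11, 2.1e-11 and 3.8e-10), beside 8.37% of all genes called lower. With NanogWT Iapp fell, at -3.21 (adjusted p = 2.85e-07, 4.62% called lower), and Aqp8 stood at -0.91 (adjusted p = 0.00528), under the fold limit, or at -1.17 (adjusted p = 0.00361) and called without the first D7 library. It was also called with a pseudocount of 0.1 (-1.33), rescaled to a common total (-1.15) and after quantile normalization (-1.07), and U90926 with NanogWT was called with a pseudocount of 0.1, at -1.81 (adjusted p = 0.0179). The steps to D12 differed by -4.82 for Clu, -3.28 for Iapp, -4.65 for U90926 and -2.60 for Aqp8, all called beside 7.33% of all genes. The comparisons from D7 share the D7 libraries with each other and with the D0 to D7 step. As a share of its own NanogWT mean at D5, Clu with NanogWT stood at 125% at D7, 201% at D8, 235% at D10 and 181% at D12, so with unmodified Nanog the gene was not lost within the time course.

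The level at D0 was set against untreated MEF in a fit that added the 2 MEF libraries. U90926 was higher than in MEF at D0 with both combinations, by 1.53 with NanogBiD (adjusted p = 9.67e-05, 5.82% of all genes called higher) and 1.51 with NanogWT (adjusted p = 0.000186, 3.69% called higher). In a fit of the compared groups alone the latter was not called (adjusted p = 0.0537). Clu, at 0.58 (adjusted p = 0.253) and 0.69 (adjusted p = 0.206), was not called, and its 2 MEF libraries were far apart. Leaving out the first MEF library gave 1.45 and 1.56 (adjusted p = 0.00133 and 0.0012), both called, and leaving out the second gave -0.30 and -0.19. Iapp and Aqp8 were at or near 0 in MEF and at D0.

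In established iPSC none of the 4 stood near its D5 level with NanogBiD. Iapp was listed at 0 in all 12 libraries. U90926 was listed at 0 in all 6 NanogBiD libraries and above 0 in 2 of 6 NanogWT libraries, at 0.453 FPKM in iPSC1 clone 1 and 0.324 in iPSC2 clone 5. A pair of the NanogWT libraries carries the clone number 1 of iPSC1 (labels 1# and 1#-2), and the second of them was listed at 0 for U90926. Aqp8 ran from 0 to 0.838 FPKM in NanogBiD iPSC, from 0.118 to 1.398 in NanogWT iPSC, and stood at 0.216 in mES cells. Clu ran from 1.17 to 5.59 FPKM with a median of 2.00 in NanogBiD iPSC, and from 0.997 to 5.88 with a median of 1.83 in NanogWT iPSC. Clu averaged 2.46 ± 1.59 and 2.39 ± 1.78 FPKM (SD, n = 6 libraries each), and its difference was 0.12 (SE 0.30, limma adjusted p = 0.999), also not called with the pair of clone 1 averaged. Between the iPSC combinations 0% of the 12456 genes tested were called, and 201 had an unadjusted p under 0.05. Against MEF, at 10.8 and 1.80 FPKM in the transcript table, Clu in all iPSC stood at -0.90 (SE 0.50, adjusted p = 0.126, with 40.7% of all genes called in either direction). Without the first MEF library the value was 0.14, and without the second it was -1.93 (adjusted p = 0.0108). Clu was the only one of the 4 to pass the filter on low values in the iPSC table, so the others were not tested there.

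**Figure D4:**
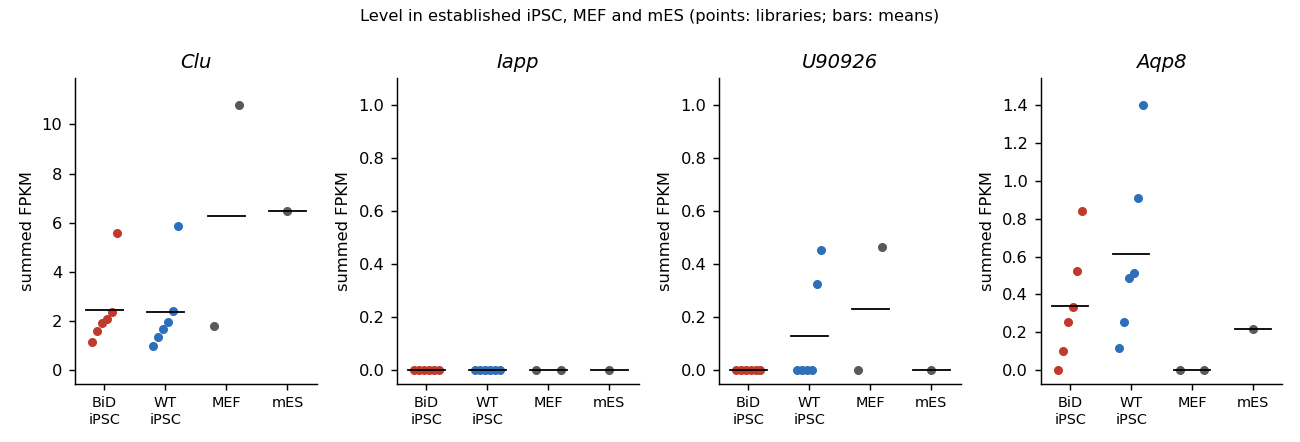
Level of each gene in NanogBiD iPSC, NanogWT iPSC, MEF and mES cells, in FPKM summed over transcripts, with points for libraries and bars for means. Clu lies between 0.997 and 5.88 FPKM in the 12 iPSC libraries and Iapp is listed at 0 in every one.

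The other genes of each pathway were counted in lists that hold the members too. Of 5 calcitonin family peptides 4 were tested, and at D7 2 were higher with NanogBiD, Iapp and Adm (adrenomedullin, a vasodilator peptide). Adm stood at 4.10 against 1.45 FPKM, a difference of 1.06 (adjusted p = 0.00117). Calca, the gene of calcitonin and CGRP, stood at 2.61 against 2.67 FPKM. At D3, 1 of the 4 was higher and 1 lower, and at D12 none was higher and 2 were lower. Of 5 receptor genes of this family 3 were tested. At D7 Ramp2, which pairs with the calcitonin receptor-like receptor, was higher (1.13 against 0 FPKM, 1.08), and Ramp3 was lower (10.2 against 124 FPKM, -3.48, adjusted p = 6.18e-06). Calcr, the core of the amylin receptor, was listed at 0 in all 4 D7 libraries, and Ramp1 stood at 0.0355 and 0.0358 FPKM, so the ligand gene was high where its own receptor gene was at 0. Calcrl, the core of the adrenomedullin and CGRP receptors, stood at 11.2 and 12.2 FPKM.

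Of 12 aquaporins 6 were tested. Aqp8 alone was higher at D3, and at D7 Aqp3 (a channel for water and glycerol) joined it at 4.80 against 0.810 FPKM (1.68, adjusted p = 0.000735). By D12 Aqp3 stood at 26.2 against 2.01 FPKM, above its D7 levels, while Aqp8 had fallen with NanogBiD. Of 16 extracellular chaperones and apolipoproteins 8 were tested, and at D7 2 were higher, Clu and A2m (alpha-2-macroglobulin, a protease inhibitor and chaperone, 15.9 against 3.15 FPKM, 1.99, adjusted p = 1.14e-06). Apod was lower at 2.90 against 21.7 FPKM (-2.55, adjusted p = 1.52e-07), and Apoe stood at 85.4 against 61.8 FPKM. Lrp1 belongs to a separate list, of clusterin receptors, whose counts are not reported here. It encodes an endocytic receptor for many secreted proteins and was lower at D7, at 15.9 against 48.0 FPKM (-1.57, adjusted p = 0.00105). Beside these counts, 1.25% of all genes were called higher and 2.45% lower at D3, 5.79% and 4.65% at D7, and 13.5% and 9.97% at D12. The median difference at D7 was 0.60 over the tested peptides, -0.13 over their receptors, 0.24 over the aquaporins and -0.0047 over the chaperones and apolipoproteins, beside 0.08 over all genes tested. These medians include Iapp among 4 peptides, Aqp8 among 6 aquaporins and Clu among 8 chaperones and apolipoproteins. The members were chosen for a high difference, and medians without them were not taken, so the medians show no shift of a family.

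Markers of the tissues known for these genes were counted too. Of 20 islet markers 11 were tested, none was higher and 1 lower at D7, Pcsk2, a prohormone convertase, at 0.960 against 2.99 FPKM (-1.01, adjusted p = 0.00322). Ins2, the main mouse insulin gene, and Ppy were listed at 0 in all 8 libraries of D5 and D7, Ins1 was under 1 FPKM, and 12 of the 20 were under 1 FPKM there. Summed islet markers were 27.0 to 40.8 FPKM with NanogBiD and 24.4 to 32.6 with NanogWT at D7, and 43.1 to 50.2 and 22.8 to 26.4 at D5. Iapp was high with NanogBiD on both days, and any link to these markers was not tested.

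Of 15 colonocyte markers 7 were tested, and at D7 3 were higher and 1 lower. The higher ones were Cdx1 (32.5 against 0.275 FPKM, 4.71, adjusted p = 9.25e-10) and Cdx2 (6.79 against 0, 2.96, adjusted p = 1.12e-11), homeobox factors of the intestine that are also active in early embryos, and the carbonic anhydrase Car2 (31.6 against 10.6, 1.499, adjusted p = 0.00884). Cdh17, an intestinal cadherin, was lower at 0.188 against 2.60 FPKM (-1.60). The brush border and goblet genes were little seen: Slc26a3, Fabp2 and Ceacam20 were listed at 0 in all 8 libraries of D5 and D7, and 9 of the 15 were under 1 FPKM. Summed colonocyte markers were 71.6 to 72.0 FPKM with NanogBiD and 13.9 to 17.7 with NanogWT at D7, and 20.7 to 29.9 and 16.4 to 17.7 at D5. Any link of these markers to Aqp8 was not tested.

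Of 14 macrophage markers 11 were tested and none was called at D3 or D7, and 1 was lower at D12. Their sum was 59.2 to 109.6 FPKM with NanogBiD and 57.4 to 177 with NanogWT at D0, 11.7 to 24.2 and 11.2 to 39.7 at D1, and 8.52 to 12.5 and 17.4 to 28.5 at D5. This sum was lower at D1 than at D0 with both combinations, and any link to U90926 was not tested. Of 9 endothelial markers 5 were tested, with none higher and 1 lower at both D3 and D7, and their sum at D7 was 3.99 to 4.84 FPKM with NanogBiD and 5.66 to 7.89 with NanogWT. Of 15 epithelial markers 9 were tested, and 1 was higher at D3, 7 at D7 and 9 at D12. At D7 these included Epcam (16.7 against 1.06 FPKM, 3.12), Cdh1 (6.42 against 0.0686, 2.80) and Cldn4 (12.5 against 1.41, 2.51), which code for adhesion and junction proteins. All 13 fibroblast markers were tested, and 5 were lower at D3 and D7 and 12 at D12. All 15 pluripotency markers were tested, and 2 were higher at D3, 11 at D7 and 12 at D12, while 1 was lower at D7 and 1 at D12. They include Pou5f1 and Nanog, whose delivered and endogenous transcripts cannot be told apart. At D12 none of the 4 genes was called. Median differences at D7 were 0.29 for islet, 0.08 for colonocyte, -0.32 for macrophage, -0.16 for endothelial, 1.34 for epithelial, -0.81 for fibroblast and 2.46 for pluripotency markers. The part of any of these lists in the levels of the 4 genes was not tested.

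The genes on either side of each member were taken to see whether the difference reached beyond it. At D7, of the 3 nearest genes on each side of Clu, Scara3 (a scavenger receptor gene, 14.5 kb away) was called, at 20.02 against 6.86 FPKM (1.42, SE 0.24, adjusted p = 0.00015). Gulo, the vitamin C synthesis gene 5.24 kb from Clu, stood at 0.114 against 0.0273 FPKM and was not tested. Beside U90926, Naaa (a lipid amidase gene, 42.3 kb away) was called at 9.02 against 2.82 FPKM (1.397, SE 0.21, adjusted p = 5.61e-05), while the nearer Uso1, 7.10 kb away, stood at 36.0 against 34.0 FPKM. Neither Scara3 nor Naaa was called at D3, at 0.56 and 0.57, when Clu and U90926 already were. By D12 Scara3 was lower with NanogBiD, at 2.80 against 13.1 FPKM (-1.86, adjusted p = 2.41e-06), and Naaa stood at 3.08 against 2.59 FPKM. None of the tested neighbours of Iapp or Aqp8 was called at D7, beside 5.79% of all genes called higher and 4.65% lower. Slco1a6 and Slco1a1 near Iapp, and Gm30335 and Hs3st4 near Aqp8, were under the filter and not tested. The same held for Gm41182, Gm41181 and Adam2 near Clu, and for LOC105246914, Gm42112 and Ppef2 near U90926. Zkscan2, 7.38 kb from Aqp8, stood at 1.46 against 2.07 FPKM.

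Among genes that overlap a member, Slco1a5 stood at 0.0634 FPKM with NanogBiD and 1.04 with NanogWT at D7, lower where Iapp was higher. Gm42113 moved with U90926, at 16.9 against 0.889 FPKM at D3 and 7.72 against 0.0341 at D7. Its level was 0.156 to 0.254 times that of U90926 in the 11 libraries in which U90926 reached 5 FPKM, and how reads were split between this pair is not given in the sources used here.

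**Figure D5:**
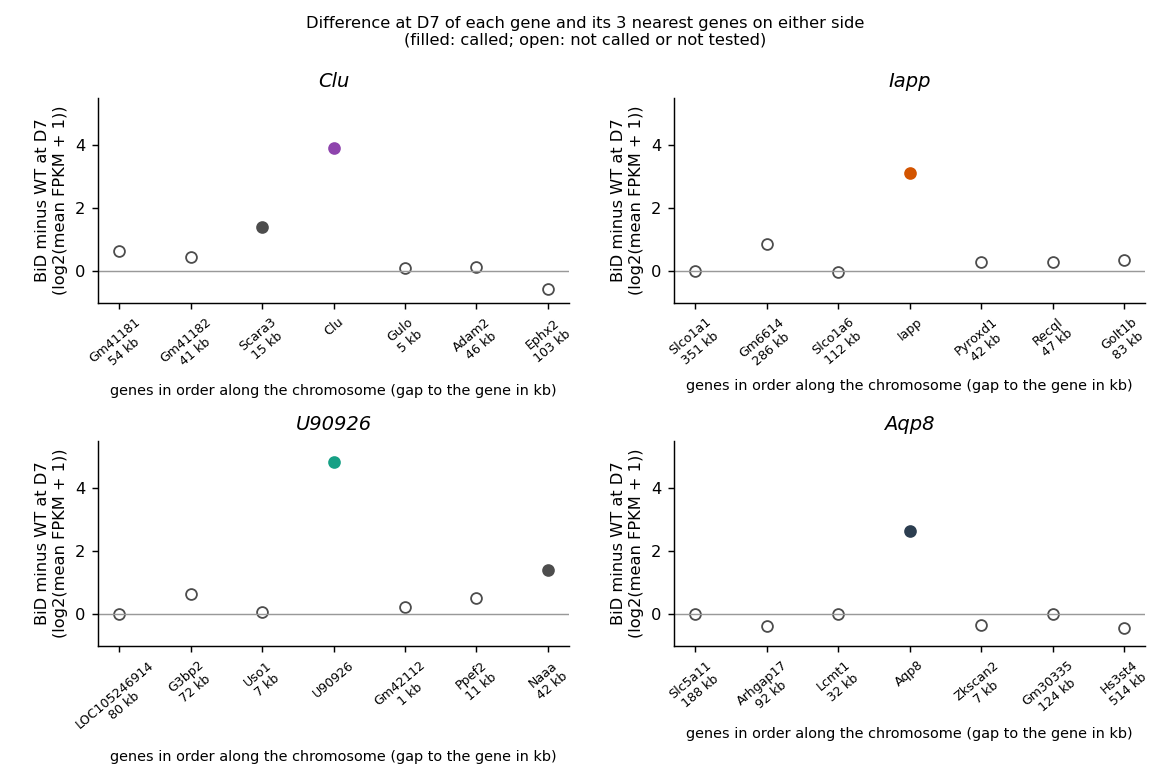
Difference at D7 (NanogBiD minus NanogWT, log2 of mean FPKM + 1) of each gene and its 3 nearest genes on either side, in order along the chromosome with the gap in kb; filled points were called and open ones were not called or not tested. Each gene stands above all of its neighbours, of which only Scara3, at 1.42, and Naaa, at 1.397, were called. The genes were chosen for a high difference at D5 and the neighbours were not, so this order follows in part from the choice.

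Likeness of course was measured as Pearson r of log2(FPKM + 1) over the 31 libraries, which include the D5 libraries of the choice and share their days and combinations, and it is a description. For Clu the most alike genes were Aldh1a2 (retinoic acid synthesis, 0.944), Ryr3 (a calcium release channel, 0.944), Ppp1r7 (0.940), Aqp8 (0.939) and Sypl2 (0.937). For Aqp8 they were Slc18a3 (the vesicular acetylcholine transporter, 0.953), Ryr3 (0.944), Lipc (hepatic lipase, 0.941), Clu (0.939) and Fam135b (0.935). For Iapp they were Slc10a4 (0.979), Gm30986 (0.959), Sostdc1 (a secreted BMP and Wnt antagonist, 0.949), Trim43b (0.946) and Ktn1 (0.946). For U90926 they were its overlapping gene Gm42113 (0.985), BC030500 (0.898), 1700066M21Rik (0.893), Dlx1as (0.881) and Isl1 (a LIM homeobox factor, 0.877). Among the 5 genes of each list, 5, 4, 4 and 3 recurred without the D5 libraries for Clu, Iapp, U90926 and Aqp8. By Spearman rank 4 of 5 recurred for Clu, 2 for U90926 and none for Iapp or Aqp8.

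Between the members r was 0.939 for Clu and Aqp8, 0.835 for Iapp and Aqp8, 0.689 for Clu and Iapp, 0.674 for Iapp and U90926, 0.383 for U90926 and Aqp8, and 0.191 for Clu and U90926. Clu and U90926, both far higher with NanogBiD at D3, D5 and D7, had the lowest Pearson r of the 6 pairs (by Spearman rank U90926 and Aqp8 were as low), with U90926 high from D1 and Clu still high at D8.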

How the data were processed

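mRNA-seq libraries of reprogramming MEF, iPSC, MEF and mES cells were analysed. Per the labels and methods, the authors trimmed reads with Trim Galore 0.6.4, mapped them to mm10 with HISAT2 2.2.1 and quantified them with StringTie 2.2.1, and the deposited values are FPKM per gene (37108 genes, 34 libraries) or per transcript (106520 transcripts, 15 libraries). The strand setting is not given in the sources used here. The authors compared conditions with GFOLD, which was not used here. The labels and the methods name different library kits.

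Depth is not in the files, and relative depth came from ratios of low values. Low values of Iapp, U90926 and Aqp8 were whole multiples of 1 read within 0.1, and those of Clu were not. Only relative depth is known, so no counting interval is given. Summed FPKM per time-course library was 370030 to 462190, and 12442 to 14431 genes reached 1 FPKM.

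Values were taken as log2(FPKM + 1), which understates the change of low genes, for 16842 genes that reached 1 FPKM in 2 or more of the 31 libraries. limma 3.58.1 (R 4.3.3) fitted 16 group means with a mean-variance trend, and groups share 1 estimate of spread. A gene was called at a two-sided Benjamini-Hochberg adjusted p under 0.05 and a difference of at least 1. MEF were added in a second fit, and iPSC (12456 genes) were fitted with the label iPSC1 or iPSC2 as covariate. The procedure was run on simulated data with normal noise and known changes. The changes were not placed in the lowest genes, so the simulation does not cover genes near 0. Its outcome is not reported here. Python 3.11.15, pandas 2.3.3 and matplotlib 3.10.9 made the summaries. Promoters, names and coordinates came from RefSeq tables of GRCm38.p6, and the strands of the 4 genes from GENCODE.

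The members and gene lists were chosen with earlier results of these data known, and all D5 values of the members are description. Beside the members, the text names by rule the 5 genes of most alike course, the 3 nearest genes on each side, up to 3 genes per list with the largest called difference at D7, and family genes set beside a member. The counts of 1 gene list are not reported here. Alternatives were a pseudocount of 0.1, no filter, rescaling to a common total, quantile normalization, a replicate block, no fold limit, fits of the compared groups alone, fits without D8, D10 and D12, and leaving out each library. The D0 to D1 and D7 to D8 steps were added after the values had been seen.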

Additional observations from a re-analysis of the deposited data

Results flagged for a closer look

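Steps in time differed between the combinations in tests of the difference itself (NanogBiD minus NanogWT, log2). From D0 to D1 this was so for U90926, by 1.86, a call that was lost with a pseudocount of 0.1, after rescaling to a common total, in a fit of these groups alone, without D8 to D12, and without any of 6 single libraries. From D0 to D3 the steps differed by 2.77 for Clu, 4.40 for Iapp, 4.17 for U90926 and 2.09 for Aqp8. From D0 to D7 they differed by 4.02 for Clu, 3.23 for Iapp, 4.82 for U90926 and 2.61 for Aqp8. From D7 to D8 the step of U90926 differed by -2.15, or by -0.87 and not called with a pseudocount of 0.1, and U90926 with NanogWT held 4 and 1 reads at D7. From D7 to D12 the steps differed by -4.82 for Clu, -3.28 for Iapp, -4.65 for U90926 and -2.60 for Aqp8.

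Among iPSC, 1 library stood away from its group for Clu in each combination. NanogBiD iPSC1 clone 4 held 5.59 FPKM of Clu against 2.39 in the next library, a gap of 0.725 of the range of 6 libraries. NanogWT iPSC1 clone 2 held 5.88 FPKM against 2.43 in the next, a gap of 0.707 of the range. Of the 4 NanogWT iPSC1 libraries, of which a pair is labelled with clone 1, the first of that pair alone was above 0 for U90926, at 0.453 FPKM, so the gap was 1 of the range. The limit used is one that about 1 in 20 groups of normally spread values passes by chance, and a single value above 0 beside values of 0 always passes it.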

How the results depend on the processing

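The calls of the 4 genes at D3, D7 and D8 (12 results) kept direction and side of the threshold under 131 of 131 alternatives, at 1.15 to 6.67. The falls with NanogBiD from D7 to D10 and to D12 (8 results) did so under 88 of 88, at -9.11 to -3.32. Both counts include the setting without the fold limit, which reuses the main fit and so could not end a call. Over all results of single members, other settings gave 800 values on the same side, 13 that lost a call, 15 that gained one and 7 of opposite sign, and leaving out 1 library gave 488, 12, 11 and 19. The cause of these changes was not tested. The replicate block ended no call of a member (D3 637 genes called against 623, D7 1765 against 1758, D8 3809 against 3761), and deviations of libraries with the same number correlated at -0.065 to 0.39 by day, over 0.1 on 4 of 7 days but not on all, and no label ties the numbers, so the libraries were not treated as pairs. Low levels limit Iapp and Aqp8 at D0, D10 and D12 and Aqp8 at D1, U90926 with NanogWT from D5 on and with NanogBiD at D10 and D12, and the single NanogBiD library limits D8. Fits of the compared groups alone gave no value where a gene was under the filter in those groups, and were not made for the iPSC comparisons.

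With a pseudocount of 0.1, genes called were 196 at D0, 1011 at D3, 1689 at D5 and 2716 at D7, the D1 differences of Iapp, at 2.09 (adjusted p = 0.0905), and U90926, at 1.93 (adjusted p = 0.0627), were not called, and the difference between the D7 to D8 steps of Iapp was 0.11. With no filter Iapp at D1 stood at 1.17 (adjusted p = 0.132). Rescaled to a common total, D3 had 937 genes called, the D0 to D1 step of Aqp8 with NanogBiD and its difference from NanogWT were both 0.00034, and the D3 to D7 step of Iapp with NanogBiD was 0.035. With quantile normalization U90926 at D0 was -0.019, Iapp at D1 1.11 (adjusted p = 0.0777), Aqp8 at D12 -0.089, and the D3 to D7 step of Iapp with NanogBiD 0.0078. Without the fold limit genes called were 321 at D0, 551 at D1, 1709 at D3, 2755 at D5, 4779 at D7, 6924 at D8, 9358 at D10 and 8546 at D12, and Clu at D12 was called at -0.91. In fits of the compared groups alone D0 had 0 genes called, D3 274, and Iapp at D1 stood at 1.17 (adjusted p = 0.0662). Without the D8, D10 and D12 libraries Iapp at D1 stood at 1.17 (adjusted p = 0.0695).

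With each library left out in turn, D0 had 92 to 650 genes called and D1 136 to 214. Iapp at D1 ran from 0.98 to 1.37, U90926 at D0 from -0.14 to 0.18, Clu at D0 from -0.38 to 0.16, Aqp8 at D12 from -0.039 to 0.16, and Clu between iPSC combinations from -0.10 to 0.33. Clu at D12 ran from -1.18 to -0.64 and was called without the second library of either combination. The D3 to D7 step of Iapp with NanogBiD ran from -0.43 to 0.31, and the D0 to D1 step of Aqp8 with NanogBiD, and its difference from NanogWT, from -0.059 to 0.055. With NanogWT, the D0 to D1 step of Clu ran from -0.38 to 0.17, the D7 to D8 step of Aqp8 from -0.17 to 0.57, and the D7 to D10 step of U90926 from -0.38 to 0.037. Clu against MEF ran from -0.30 to 1.45 at D0 with NanogBiD, from -0.19 to 1.56 with NanogWT, and from -1.93 to 0.14 in iPSC.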
